A study of Mus musculus with 6 samples.

Results

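The 9 genes of the prostaglandin and leukotriene pathway, Ptgs1, Ptgs2, Ptges, Hpgds, Ptger2, Ptger4, Alox5, Alox5ap and Ltc4s, were followed in dendritic cells taken from tumours, in 3 libraries from wild-type and 3 from MAVS knockout mice. They were found by matching the Ensembl identifiers of the count table to the symbols, which gave 9 genes of the 26519 in the table. Both kinds of host had been inoculated with MC38, a colon carcinoma line of the mouse, and the cells were isolated 10 days later to ask how host MAVS acts on antitumour immunity. MAVS is the adaptor on mitochondria through which RIG-I-like receptors for RNA signal, and the host carries the knockout. The strain, age and sex of the hosts, the part of Mavs deleted, whether each library came from a separate animal, and how the dendritic cells were purified are not stated in the labels, so a p-value here measures the spread among these libraries alone, which may be technical.

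Eicosanoids are short-lived lipid signals cut from arachidonic acid, which phospholipases release from membranes. In the prostaglandin branch the cyclooxygenases encoded by Ptgs1 and Ptgs2 make an intermediate that synthases such as those encoded by Ptges and Hpgds turn into prostaglandin E2 or D2, and Ptger2 and Ptger4 encode receptors for prostaglandin E2 that raise cyclic AMP. In the leukotriene branch the lipoxygenase encoded by Alox5, helped by the membrane protein encoded by Alox5ap, makes leukotriene A4, which Lta4h turns into leukotriene B4 and Ltc4s into leukotriene C4. In tumours, prostaglandin E2 is known for restraining dendritic cells, and leukotriene B4 for attracting leukocytes.

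Of the 9 genes, 3 passed the test, which compared knockout with wild-type libraries by the quasi-likelihood test of edgeR, with p-values adjusted after Benjamini and Hochberg over all 12580 tested genes and a threshold of 0.05. Ptgs2, the inducible cyclooxygenase, rose 1.81-fold and Ptges, the inducible prostaglandin E synthase, rose 2.50-fold in knockout hosts, while Alox5 was 1.80-fold higher in wild-type hosts. The other 6 genes, among them both receptors, did not pass. Over all tested genes 2.81% passed, 1.76% higher and 1.05% lower in knockout hosts. The median log2 fold change of the 9 genes was -0.10, beside -0.0022 for all tested genes. The sign was positive for 2 of the 9 genes and negative for 7.

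The promoter windows of the 3 genes that passed are shown because Ptgs2 and Ptges rose and Alox5 fell in the same libraries. The windows follow the RefSeq start, which for Ptges lies inside a GENCODE gene that begins further upstream. Each window runs from 250 bases before to 30 bases after the RefSeq start on GRCm38.p6 and is written 5′ to 3′ on the strand of the gene. Ptgs2 lies at chr1:150099781-150100060 on the plus strand, Ptges at chr2:30903268-30903547 on the minus strand and Alox5 at chr6:116461149-116461428 on the minus strand. Capitals mark matches, on either strand, to the CRE half-site TGACGT, the E-box CACGTG, the C/EBP palindrome TTGCGCAA and the GC box GGGCGG.
Ptgs2: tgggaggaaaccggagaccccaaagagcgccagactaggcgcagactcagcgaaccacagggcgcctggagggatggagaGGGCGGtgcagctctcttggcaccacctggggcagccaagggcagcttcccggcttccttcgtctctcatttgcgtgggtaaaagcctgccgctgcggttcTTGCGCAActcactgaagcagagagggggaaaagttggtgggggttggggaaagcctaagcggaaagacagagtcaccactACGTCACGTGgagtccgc
Ptges: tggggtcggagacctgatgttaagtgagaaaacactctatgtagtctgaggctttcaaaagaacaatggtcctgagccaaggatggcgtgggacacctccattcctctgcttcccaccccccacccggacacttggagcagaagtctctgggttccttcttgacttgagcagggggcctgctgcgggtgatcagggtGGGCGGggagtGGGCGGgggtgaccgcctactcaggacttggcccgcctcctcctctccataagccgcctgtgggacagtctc
Alox5: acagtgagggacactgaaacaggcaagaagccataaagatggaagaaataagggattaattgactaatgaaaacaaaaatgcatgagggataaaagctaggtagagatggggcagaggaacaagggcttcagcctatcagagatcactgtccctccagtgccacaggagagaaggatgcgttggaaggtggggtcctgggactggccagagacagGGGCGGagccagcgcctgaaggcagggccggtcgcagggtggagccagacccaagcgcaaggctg

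The Ptgs2 window held a GC box starting 170 bases before the annotated start and the C/EBP palindrome 69 bases before it. It also held a CRE half-site and an E-box, which share bases, at bases 13 and 17 of the annotated transcript. The Ptges window held GC boxes starting 53 and 42 bases before the start, and the Alox5 window held 1 starting 35 bases before it. Of 32851 windows of the same length, 34.7% held a GC box, 7.26% the CRE half-site, 6.79% the E-box and 0.18% the C/EBP palindrome. The palindrome was the rarest of the motifs in the Ptgs2 window, but it is also the longest of them, and longer motifs match less often. The AP-1 letters TGANTCA (7.46% of windows), the TATA box TATAAA (13.1%) and the NF-kB consensus (7.94%) matched in none of the 3 windows. These matches describe letters in 280 bases and say nothing of binding.

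Depth was 17357031 to 20851733 counts per wild-type library and 14466640 to 18862534 per knockout library. Mavs lay at 33.9 to 39.7 CPM in wild-type libraries and at 8.99 to 12.8 CPM in the knockout ones (CPM, counts scaled to a common library size after TMM normalization), a difference of -1.86 on the log2 scale (SE 0.18, edgeR adjusted p = 0.0017), and all 3 libraries labelled knockout were lower. Of 12 dendritic cell markers, Flt3, Zbtb46, Xcr1 and Cd209a fell, Ccr7 rose and 7 did not pass, with a median log2 fold change of -0.36. They summed to 30340 to 37310 CPM in wild-type hosts against 33760 to 43660 CPM in knockout hosts, nearly all from Cd74 and H2-Ab1, MHC class II genes that macrophages and B cells also express. Without those genes, left out after their values were seen, the sums were 766 to 1096 and 831 to 920 CPM and overlapped. The more specific markers were low in wild-type libraries, with Flt3 at 49.9, Xcr1 at 35.1, Zbtb46 at 20.1 and Clec9a at 7.49 CPM on average. Other dendritic cell markers were higher there, with Cd209a at 80.1, Itgax at 246 and Irf8 at 378 CPM. The macrophage list spread as widely. Csf1r stood at 1354, C1qb at 2151 and Lyz2 at 21640 CPM, but Mertk at 29.25, Adgre1 at 72.5 and Fcgr1 at 119.7 CPM. The 12 macrophage markers summed to 26660 to 31830 and 28380 to 35930 CPM, with none passing. Markers of the other cell types were far lower, apart from those of monocytes. The sums in wild-type and knockout libraries, in CPM, were 11.7 to 23.4 and 17.0 to 26.6 for T and NK cells and 31.5 to 52.2 and 10.2 to 11.96 for B cells, of which Ighm fell. They were 31.0 to 77.2 and 37.1 to 60.6 for platelets, 18.5 to 35.9 and 15.02 to 49.5 for fibroblasts, and 49.6 to 97.8 and 118 to 222.5 for endothelium, of which Flt1 rose. The epithelial markers summed to 363 to 541 and 419 to 676 CPM, nearly all from Cdh1, with Krt8, Krt18, Krt19 and Cldn7 below 1 CPM in every library.

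Levels were compared between genes as CPM per kb of exon (the union of annotated exons). In wild-type libraries Alox5ap was highest at 81.0 ± 9.97 CPM per kb (SD, n = 3), and Ptgs2 followed at 71.6 ± 10.7, with libraries that overlapped. Alox5 (19.8 ± 2.66) and Ptgs1 (15.7 ± 4.32) came next and overlapped, then Ptger4 (7.28 ± 0.584). Ptges (3.75 ± 0.815) and Ptger2 (3.59 ± 0.735) overlapped, as did Ltc4s (0.99 ± 0.143) and Hpgds (0.713 ± 0.288), the lowest of the 9. In knockout libraries Ptgs2 stood alone at the top at 129.4 ± 15.5 CPM per kb, above Alox5ap at 75.5 ± 8.56 in every library. Ptges, at 9.37 ± 3.91 CPM per kb in knockout libraries, overlapped both Alox5 (10.99 ± 1.08) and Ptger4 (6.08 ± 0.304). Among all tested genes ranked by mean level per kb, Ptgs2 stood at the 95.9th percentile, Alox5ap at the 94.7th, Ltc4s at the 24.4th and Hpgds at the 15.7th.

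**Figure D1:**
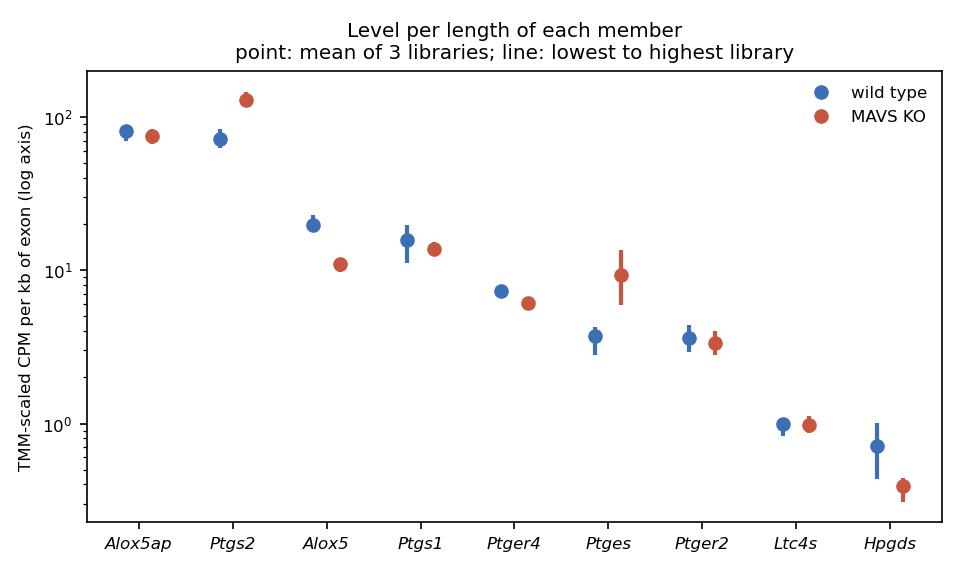
Level of each of the 9 genes in CPM per kb of exon on a log axis, as the mean (point) and the lowest to highest library (line) of 3 wild-type (blue) and 3 knockout (red) libraries. Ptgs2 went from 71.6 to 129.4 CPM per kb and Ptges from 3.75 to 9.37, whereas Alox5 went from 19.8 to 10.99.

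Of the cyclooxygenases, only the inducible Ptgs2 passed. Ptgs2 (ENSMUSG00000032487, chromosome 1, 150100031 to 150108227 in mm10) stood at 312, 288 and 383 CPM in the wild-type libraries and at 531, 669.8 and 577 CPM in the knockout libraries. Every knockout library was above every wild-type library. The means were 328 ± 49.0 and 593 ± 70.8 CPM (SD, n = 3 each) and the log2 fold change was 0.85 (SE 0.13, 95% interval 0.56 to 1.15, edgeR adjusted p = 0.0164). The call was lost without knockout replicate 2 (edgeR adjusted p = 0.0587) or 3 (0.0697). Its adjusted p spanned 6.33e-10, reached without a filter, to 0.0697 over all the alternatives. The 8 monocyte markers summed to 5705 to 6454 CPM in wild-type libraries and 8583 to 17130 CPM in the knockout ones, a difference that came from Chil3, the only one to pass. Without Chil3, left out after its values were seen, the sums overlapped, at 4036 to 5842 and 4650 to 5346 CPM. Most of what remained was Fn1 and Ccr2, and Fn1 alone ran from 2521 to 4507 CPM in wild-type libraries. The overlap thus says little of the other markers. The median log2 fold change of the list was -0.05, with 4 markers positive and 4 negative. The part of these markers in the Ptgs2 result was not tested.

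Ptgs1 (ENSMUSG00000047250, chromosome 2, 36230426 to 36252272), the constitutive cyclooxygenase, stood at 77.0, 62.8 and 43.6 CPM in wild-type hosts against 59.2, 49.1 and 52.7 CPM in knockout hosts. The groups overlapped, with the knockout values inside the wild-type range. Its log2 fold change was -0.19 (SE 0.19, 95% interval -0.61 to 0.23, edgeR adjusted p = 0.711). Per kb, Ptgs2 exceeded Ptgs1 by 3.44, 3.89 and 7.44 times in the wild-type libraries and by 7.603, 11.6 and 9.30 times in the knockout libraries. The lowest knockout ratio lay just above the highest wild-type one. The difference between the changes of the cyclooxygenase genes was not tested.

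Of the prostaglandin synthases, Ptges rose and Hpgds did not pass. Ptges (ENSMUSG00000050737, chromosome 2, 30889471 to 30929863), which encodes the microsomal prostaglandin E synthase that often acts with the inducible cyclooxygenase, stood at 11.04, 16.9 and 16.3 CPM in wild-type hosts against 33.8, 53.5 and 23.2 CPM in knockout hosts. The groups did not overlap, but the knockout libraries spread over a wider range than the wild-type ones. The log2 fold change was 1.32 (SE 0.29, 95% interval 0.69 to 1.96, edgeR adjusted p = 0.0382). This call was the least stable of the 3: it was lost in each of the 6 fits that left out a library (edgeR adjusted p from 0.058 to 0.135, log2 fold change from 0.96 to 1.57), with library size alone (0.055) and with limma-voom (0.0515). Over all the alternatives its adjusted p ran from 1.26e-09, reached without a filter, to 0.135. Ptges lies on the chromosome of Mavs, 100.3 Mb from it, and Ptgs1 lies between them.

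Hpgds (ENSMUSG00000029919, chromosome 6, 65117293 to 65144908), the haematopoietic prostaglandin D synthase, was scarce, with 132, 83 and 61 counts in wild-type hosts against 49, 42 and 27 in knockout hosts. In CPM these were 6.51, 4.43 and 2.81 against 2.75, 2.82 and 1.98, so that the lowest wild-type library lay among the knockout ones. The log2 fold change of -0.86 had the same size as that of Alox5 but an SE of 0.39 (95% interval -1.72 to -0.003, edgeR adjusted p = 0.311). With Hpgds, 4 of the 9 genes had an edgeR p below 0.05 before adjustment, as had 16.0% of all tested genes. Mast cells are a known source of this enzyme, and Cpa3, Cma1, Tpsb2, Tpsab1, Fcer1a and Ms4a2 were each below 1 CPM in every library. The 9 mast cell and basophil markers in the table summed to 24.7 to 33.4 CPM in wild-type hosts against 11.9 to 21.4 CPM in knockout hosts, mostly from Kit, which fell, and their part in the Hpgds values was not tested.

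Neither receptor for prostaglandin E2 passed. Ptger4 (ENSMUSG00000039942, chromosome 15, 5206661 to 5244187), which encodes the EP4 receptor, stood at 45.8, 46.5 and 52.8 CPM in wild-type hosts against 41.8, 41.2 and 38.1 CPM in knockout hosts. The groups did not overlap, a pattern that 21.8% of all tested genes showed and that 4 of the 9 genes showed, namely Ptgs2, Ptges, Ptger4 and Alox5. The log2 fold change was small, at -0.26 (SE 0.13, 95% interval -0.54 to 0.02, edgeR adjusted p = 0.35). Ptger2 (ENSMUSG00000037759, chromosome 14, 44988195 to 45003820), which encodes the EP2 receptor, stood at 22.7, 15.2 and 18.1 CPM in wild-type hosts against 20.8, 17.0 and 14.5 CPM in knockout hosts, which overlapped. Its log2 fold change was -0.09 (SE 0.21, 95% interval -0.55 to 0.37, edgeR adjusted p = 0.886). The intervals exclude a rise of the size seen for Ptgs2 for both receptors. Per kb, Ptger4 exceeded Ptger2 by 1.57 to 2.40 times in the wild-type and 1.57 to 2.05 times in the knockout libraries.

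**Figure D2:**
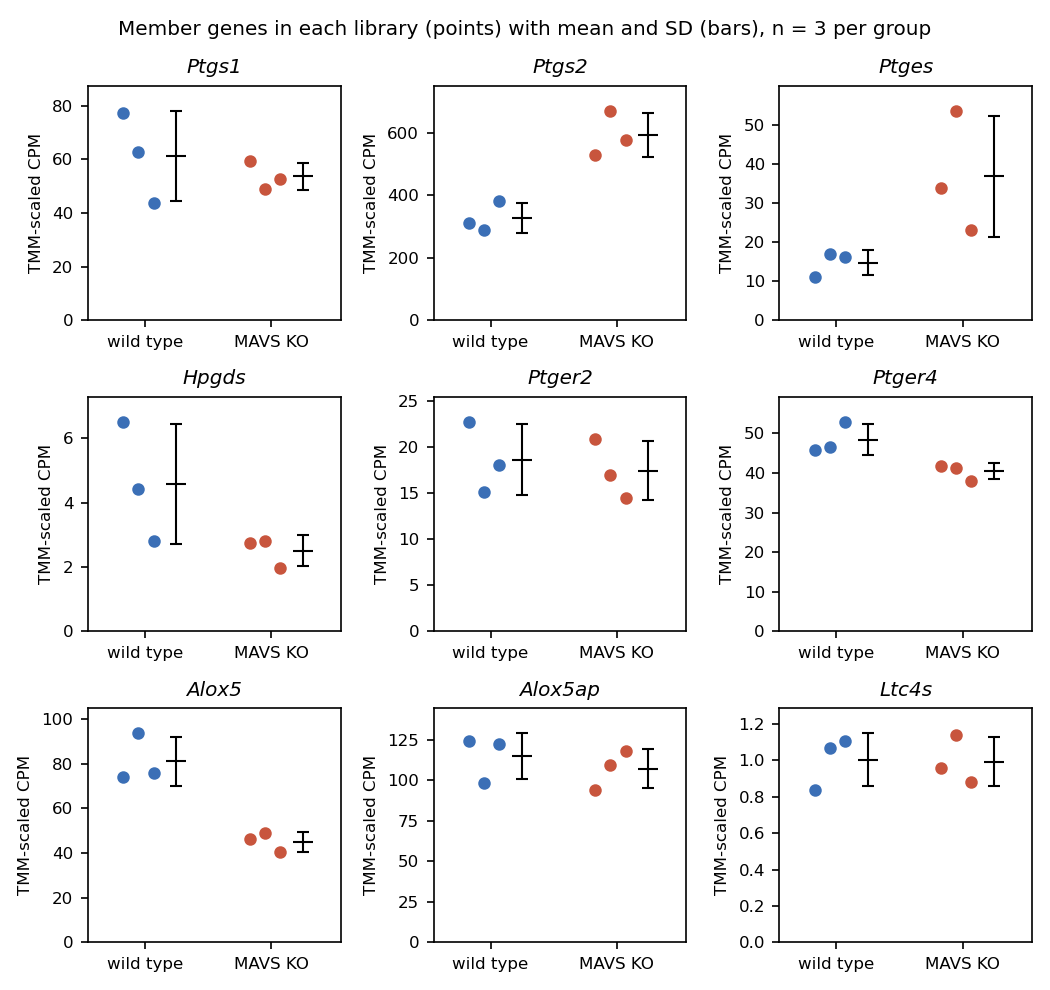
CPM of each of the 9 genes in each library (points; blue wild-type, red knockout) with the mean and SD of 3 libraries (bars), each panel on its own linear axis from 0. The groups are apart for Ptgs2, Ptges, Ptger4 and Alox5 and overlap for the other 5 genes.

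In the leukotriene branch Alox5 fell and its helper Alox5ap did not pass. Alox5 (ENSMUSG00000025701, chromosome 6, 116410077 to 116461178) stood at 73.9, 93.7 and 75.8 CPM in wild-type hosts against 46.1, 49.0 and 40.3 CPM in knockout hosts. All knockout libraries were below all wild-type libraries. The log2 fold change was -0.85 (SE 0.14, 95% interval -1.15 to -0.54, edgeR adjusted p = 0.0164), from 81.2 ± 10.9 to 45.1 ± 4.42 CPM (SD, n = 3 each). The call was kept without any 1 of the wild-type libraries and lost without knockout replicate 1 (edgeR adjusted p = 0.0603), 2 (0.0537) or 3 (0.0913), and its adjusted p spanned 2.2e-06 to 0.0913 over all the alternatives.

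Dendritic cell markers moved in both directions in the libraries where Alox5 was lower. Flt3 (49.9 ± 20.7 to 12.4 ± 2.64 CPM, SD, n = 3 each), Xcr1 (35.1 ± 12.9 to 7.79 ± 1.75 CPM), Cd209a (80.1 ± 17.1 to 22.2 ± 7.36 CPM) and Zbtb46 (20.1 ± 6.51 to 8.74 ± 1.93 CPM) fell, and Ccr7 rose (34.2 ± 6.26 to 74.0 ± 23.4 CPM). Clec9a, which marks the same subset as Xcr1, had a log2 fold change of -0.07 (edgeR adjusted p = 0.939). The other markers that did not pass were Irf4 at -0.70, Batf3 at -0.65, H2-Ab1 at 0.03, Irf8 at 0.21, Cd74 at 0.24 and Itgax at 0.25. The part of these markers in the Alox5 result was not tested. In bulk libraries fewer cells of a type and less RNA per cell cannot be told apart. Neutrophils are rich in Alox5, and S100a9, Ly6g, Retnlg, Camp, Ngp and Ltf were each below 1 CPM in every library. The 11 neutrophil markers summed to 59.9 to 105.7 CPM in wild-type hosts against 98.2 to 104.3 CPM in knockout hosts, which overlapped. Most of those sums came from Mmp8, which rose from 28.6 ± 2.61 to 61.0 ± 2.87 CPM (SD, n = 3 each), and Csf3r. Mmp9 added 19.2, 48.6 and 1.94 CPM in the wild-type libraries. S100a8 stood at 4.33 to 9.79 CPM and Cxcr2 at 0.921 to 4.58 CPM over all libraries. The part of the neutrophil markers in the Alox5 result was not tested.

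Alox5ap (ENSMUSG00000060063, chromosome 5, 149264767 to 149288153), which presents arachidonic acid to the lipoxygenase, stood at 124.1, 98.7 and 122.2 CPM in wild-type hosts against 94.2, 109.4 and 118.2 CPM in knockout hosts. The groups overlapped. Its log2 fold change of -0.10 (SE 0.13, 95% interval -0.39 to 0.19, edgeR adjusted p = 0.796) excludes a fall of the size seen for Alox5. Per kb, Alox5ap exceeded Alox5 by 4.85, 3.04 and 4.66 times in the wild-type libraries and by 5.91, 6.46 and 8.48 times in the knockout libraries.

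Ltc4s (ENSMUSG00000020377, chromosome 11, 50236461 to 50238616), which conjugates leukotriene A4 with glutathione, was near the limit of detection, with 17, 20 and 24 counts in wild-type and 17, 17 and 12 counts in knockout libraries. These were 0.838 to 1.11 CPM and 0.879 to 1.14 CPM. Its log2 fold change was -0.02 (SE 0.53, edgeR adjusted p = 0.994), and the 95% interval from -1.18 to 1.15 would hold a 2-fold change in either direction. Ltc4s shares 268 exonic bases with an antisense gene, Gm26542, which had 18 counts over all 6 libraries, beside 12 to 24 for Ltc4s in each. Without a stated strand setting these reads cannot be assigned with certainty. For Alox5ap, Ptger2, Ptger4 and Ptgs1 the overlapping partners on the opposite strand shared at most 1015 exonic bases. Ptger4 shared those with Gm15937, a processed pseudogene with 0 counts, and 82 with Ttc33 (1674 counts).

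**Figure D3:**
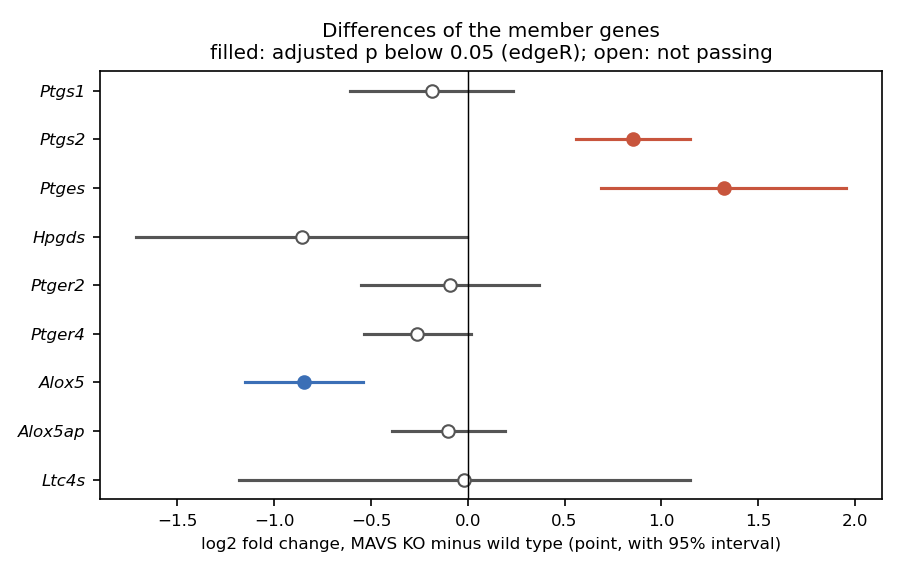
Log2 fold change, knockout minus wild-type, of each of the 9 genes with its 95% interval from edgeR, filled where the adjusted p was below 0.05. Ptgs2 (0.85) and Ptges (1.32) lie above 0, Alox5 (-0.85) lies below, and the widest intervals belong to Ltc4s and Hpgds.

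Set side by side, the Ptgs2 and Alox5 levels moved apart. Per kb, Ptgs2 exceeded Alox5 by 3.79, 2.76 and 4.52 times in the wild-type libraries and by 10.3, 12.3 and 12.8 times in the knockout libraries. Ptgs2 and Ptges, although both higher in knockout hosts, did not keep 1 ratio: Ptgs2 exceeded Ptges by 14.7 to 24.3 times in the wild-type and 10.7 to 21.3 times in the knockout libraries, which overlapped. The 9 genes also differed in how much they varied between replicates. The fitted biological coefficient of variation was 13.1% for Ptgs2, 12.8% for Alox5ap, 24.5% for Ptges and 32.2% and 36.2% for Hpgds and Ltc4s, beside a median of 19.2% over all tested genes.

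Genes upstream of the pathway, which release arachidonic acid, went both ways. Of 12 listed genes 6 were tested, 1 rose, 1 fell and 4 did not pass. Pla2g4a, the cytosolic phospholipase that supplies arachidonic acid to both branches, stood at 118.2, 83.9 and 106.7 CPM in wild-type hosts against 168.3, 170.8 and 158.0 CPM in knockout hosts, without overlap. It rose by 0.69 on the log2 scale (SE 0.13, edgeR adjusted p = 0.0291), the call being kept without wild-type replicate 1 (0.033), lost without any other 1 library and lost with library size alone (0.0562). Its adjusted p ran from 2.97e-05 to 0.112 over all the alternatives. Daglb, a lipase that makes an arachidonate-bearing endocannabinoid, had 109.0, 81.2 and 88.2 CPM in wild-type hosts against 66.1, 41.2 and 54.0 CPM in knockout hosts. It fell by 0.79 on the log2 scale (SE 0.18, edgeR adjusted p = 0.0462), a call lost without any 1 library (0.0564 to 0.18) and kept under the 8 other alternatives (9.63e-06 to 0.0472). Daglb shares 2309 exonic bases with Rac1 on the opposite strand (2311 counts), so some of its reads are uncertain. Mgll, the lipase that frees arachidonic acid from that endocannabinoid, was below 1 CPM in every library.

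The remaining prostanoid genes did not pass. None of 6 tested synthases and reductases did: Akr1b3, a reductase that can make prostaglandin F2 alpha, was closest at -0.32 (SE 0.12, edgeR adjusted p = 0.215), followed by the carbonyl reductase Cbr1 at -0.15. The thromboxane synthase gene Tbxas1 was abundant, at 262 ± 29.2 CPM in wild-type hosts against 265 ± 62.6 CPM in the knockout ones (SD, n = 3 each), and its log2 fold change was 0.02. None of 5 tested genes of breakdown and transport passed, with Hpgd, the main prostaglandin-inactivating dehydrogenase, at -1.52 (SE 0.67, edgeR adjusted p = 0.301) from 1.75 ± 0.415 to 0.617 ± 0.545 CPM (SD, n = 3 each) and the reductase gene Zadh2 at 0.51 (SE 0.19, edgeR adjusted p = 0.213). Of the other prostanoid receptors 2 were tested and neither passed, with Ptgir, the receptor for prostacyclin, at -0.28 (SE 0.25). Ptger3, Ptgdr2 and Tbxa2r were below 1 CPM in every library.

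Among the other leukotriene genes, the enzyme that makes leukotriene B4 fell and its receptor rose. Lta4h stood at 133.4, 132.0 and 114.1 CPM in wild-type hosts against 86.9, 93.7 and 83.6 CPM in knockout hosts. It fell by 0.52 on the log2 scale (SE 0.11, edgeR adjusted p = 0.0382), without overlap, as the sole gene of 6 tested leukotriene enzymes and exporters to pass. Dpep2, a dipeptidase that trims leukotriene D4, was closest of the others at -0.25 (SE 0.09, edgeR adjusted p = 0.225) and passed with library size alone (0.0407). Ltb4r1, the high-affinity leukotriene B4 receptor gene, stood at 258.3, 238.5 and 270.1 CPM in wild-type hosts against 351.8, 342.8 and 361.6 CPM in knockout hosts, a tight separation of the groups. It rose by 0.46 (SE 0.10, edgeR adjusted p = 0.0364). The receptors for the cysteinyl leukotrienes did not pass, Cysltr2 at 1.63 (SE 0.64, edgeR adjusted p = 0.238) from at most 2.48 CPM and Cysltr1 at 0.06 (SE 0.13).

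Both leukotriene B4 calls were lost in most fits that left out a library, which also had fewer replicates. The log2 fold changes there were -0.59 to -0.48 for Lta4h and 0.41 to 0.50 for Ltb4r1. Lta4h kept its call without wild-type replicate 3 (edgeR adjusted p = 0.0436), lost it without any other 1 library and ran from 0.003 to 0.182 over all the alternatives. Ltb4r1 lost its call without any 1 library, with library size alone (0.111) and with the replicate number as a block (0.0566), in a range from 0.00287 to 0.162.

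Of 4 tested genes of other lipoxygenases and resolution Fpr2, a formyl peptide receptor that also binds lipoxin, rose by 1.16 on the log2 scale (SE 0.24, edgeR adjusted p = 0.0364), from 10.99, 10.7 and 14.7 to 18.5, 34.8 and 28.1 CPM. The call was kept without wild-type replicate 3 or knockout replicate 1, lost without any other 1 library, with library size alone (0.0514) and with limma-voom (0.0533), and its adjusted p ran from 5.23e-06 to 0.141 over all the alternatives. Alox15, a lipoxygenase of macrophages and eosinophils, had the largest log2 fold change of the list at 1.92, but its libraries spread from 1.98 to 13.2 CPM in wild-type hosts against 12.3 to 50.5 CPM in knockout hosts, with overlap, and it did not pass (SE 0.61, edgeR adjusted p = 0.146). It passed without a filter (2.83e-15) and with the replicate number as a block (0.00305). Eosinophil markers summed to 68.3 to 211.2 CPM in wild-type libraries and 48.3 to 109.0 CPM in the knockout ones, with Epx, Prg2, Ccr3, Il5ra, Ear1 and Ear6 below 1 CPM in every library.

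Of 15 genes that cyclic AMP can induce, a readout that many other signals share, none rose, Nr4a2 and Thbs1 fell and 13 did not pass, with a median log2 fold change of 0.06. Nr4a2, an orphan nuclear receptor, fell by 0.89 on the log2 scale (SE 0.14, edgeR adjusted p = 0.0164), with wild-type libraries at 168.1 to 235.0 CPM and knockout libraries at 108.1 to 122.2 CPM. Thbs1, the matrix protein thrombospondin, fell by 1.84 (SE 0.37, edgeR adjusted p = 0.0327). The Thbs1 call was lost with robust dispersion (0.0839) and in all but 2 of the 6 fits made without 1 library. Its adjusted p spanned 3.38e-45 to 0.155 over all the alternatives. The lowest value came from the edgeR fit without a filter, where the log2 fold change was -1.85 but the SE only 0.13. Thbs1 lies 13.1 Mb from Mavs on chromosome 2 and Nr4a2 74.1 Mb from it. Nr4a2 lost its call in 3 of the 6 such fits (edgeR adjusted p up to 0.0876 over all the alternatives).

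Over these 8 lists, 47 of 70 genes were tested, 3 rose, 4 fell and 40 did not pass, with a median log2 fold change of 0.06. That split depended on the scaling: with library size alone, which lowers the median of all tested genes to -0.17, 0 passed as higher and 6 as lower. Without the cyclic AMP list, 5 of 32 tested genes passed, beside 2.81% of all tested genes.

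**Figure D4:**
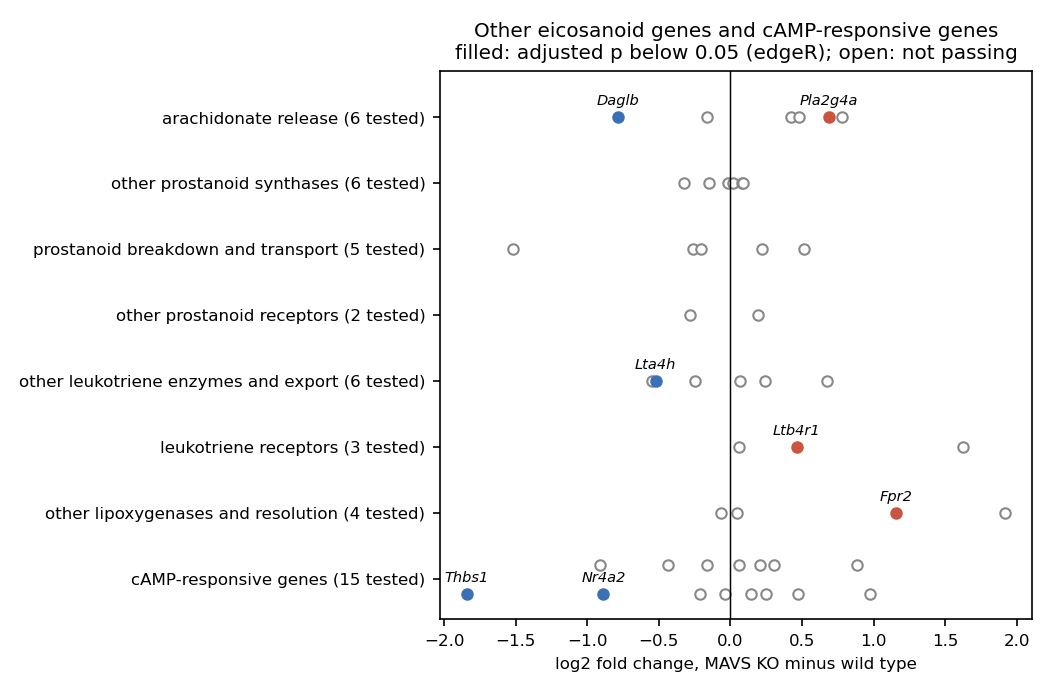
Log2 fold change, knockout minus wild-type, of each tested gene in 8 lists of other eicosanoid and cyclic AMP genes, filled and named where the edgeR adjusted p was below 0.05. Pla2g4a (0.69), Ltb4r1 (0.46) and Fpr2 (1.16) lie above 0, and Daglb (-0.79), Lta4h (-0.52), Nr4a2 (-0.89) and Thbs1 (-1.84) below.

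Genes with the most similar profile to each of the 3 passing genes were sought among 8800 protein-coding genes with a mean of at least 5 CPM, by the root-mean-square difference of log2 CPM over the 6 libraries after centring each gene on its mean. The nearest to Ptgs2 were Gadd45a (0.06), Bst1 (0.07), Smpdl3b (0.09), Dennd1a (0.09) and P2ry14 (0.09), whereas Ptges stood at 0.41. The nearest to Alox5 were Chaf1a (0.04), Zfp367 (0.06), Dtl (0.09), Eif5a2 (0.10) and Pbk (0.11). No gene followed Ptges as closely: its nearest were Parp12 (0.25), Igf2r (0.27), Tnfrsf9 (0.27), Ndufa4l2 (0.30) and Fzd1 (0.30). These distances include the difference between the groups and carry no test.

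**Figure D5:**
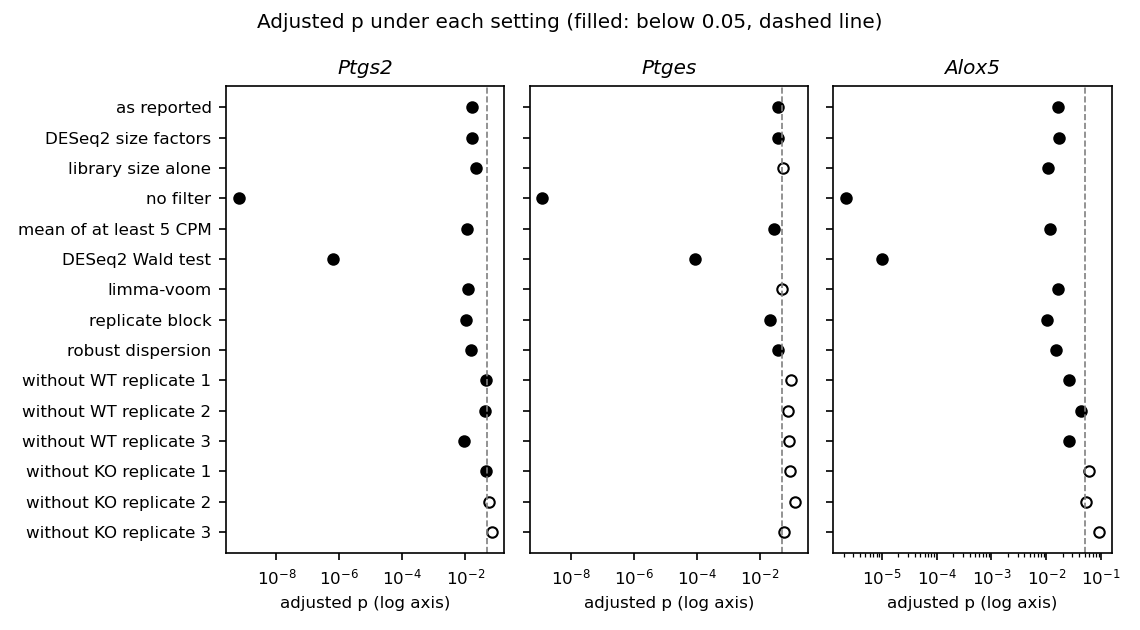
Adjusted p on a log axis for Ptgs2, Ptges and Alox5 as reported, under 8 other settings and without each library, filled where below 0.05 (dashed line). Ptgs2 passes in 4, Ptges in 0 and Alox5 in 3 of the 6 fits that leave out a library.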

How the data were processed

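The authors deposited 1 table of raw read counts, with Ensembl genes in rows and 6 libraries in columns. Per the submitters' processing notes, the build was mm10 and the tools were HISAT2, HISAT, HTSeq and DESeq2, with no version or role for any of them. Neither the gene annotation nor the strand setting of the counting is given. Symbols and positions came from GENCODE M21 (GRCm38), which matched 26383 of 26519 genes and left 136 unmatched, and promoters from RefSeq, which matched 8 of the 9 genes. Counts were filtered with filterByExpr (minimum count 10, minimum total 15), scaled by TMM and tested with edgeR 4.0.16 in R 4.3.3 without covariates. Other settings tried were scaling by library size alone or by DESeq2 size factors, dropping the filter or raising it to a mean of 5 CPM, robust dispersion, the replicate number as a block, limma-voom (limma 3.58.1), the Wald test of DESeq2 1.42.0, and leaving out each library. The procedure was tested on simulated data. Libraries of a group differed by more than sampling noise (chi-square per degree of freedom 14.9 to 34.8). The 9 genes and the lists were chosen with earlier results of these data known. Named genes are the 9, Mavs, the 2 with the smallest p and any passing in each list, and the 5 nearest profiles, except that the value of Ptger1 is not reported here. Tbxas1, Mgll, Cysltr1, Vegfa, Il6, Nr4a3 and the marker genes are not covered by the rule. Like the genes named as undetected, they were picked with their values known.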

Additional observations from a re-analysis of the deposited data

How the results depend on the processing

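Fewer genes passed in every fit that left out 1 library, whichever it was. Each such fit also had fewer replicates, so dependence on a particular library and the smaller group cannot be told apart. The log2 fold changes moved less, from 0.76 to 0.98 for Ptgs2 and from -0.92 to -0.74 for Alox5. The number of the 9 genes passing (3) ranged from 0 to 2 when 1 library was left out. The number of all genes passing (354) ranged from 36 to 277, and that of the 47 other listed genes (7) from 0 to 5. Without a filter 924 of all genes and 11 of the listed genes passed, and the DESeq2 Wald test called 738 of all genes. The fit without a filter also gave the lowest adjusted p printed above for Ptgs2, Ptges, Alox5, Pla2g4a, Daglb, Fpr2, Thbs1 and Alox15. The cause of these shifts was not tested. Leaving out a library turned the sign of 3 genes that did not pass: Ptgs1 ranged from -0.38 to 0.008, Ptger2 from -0.24 to 0.065 and Ltc4s from -0.14 to 0.061 on the log2 scale. None of the other member or list genes run under the alternatives changed sign. Library size alone shifted the median of all tested genes from -0.0022 to -0.17 on the log2 scale, and the calls from 222 higher and 132 lower to 102 higher and 341 lower. Over all tested genes, the deviations of same-numbered libraries had correlations of -0.0428 to 0.0866, against -0.138 to 0.122 for differently numbered ones. These correlations do not show whether the numbers pair libraries for single genes. With the replicate number as a block, the SE went from 0.61 to 0.23 for Alox15 and from 0.37 to 0.13 for Thbs1. With the replicate block 414 of all genes, 3 of the 9 and 8 of the listed genes passed. Hpgds, Ltc4s, Hpgd and Cysltr2 lay below the filter at 5 CPM and gave no value there.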
